A study of Rattus norvegicus with 36 samples.

Results

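Trim A is a 3′ isomiR of miR-125b, a mature microRNA that lacks the last adenosine of the canonical form. Here the gene expression of cells given the Trim A mimic was compared with that of cells given the canonical miR-125b mimic, both kept in normoxia. The members were the 3 libraries that the sample labels name Normoxia Trim A and the 3 named Normoxia miR-125b, which are 6 of the 36 samples of the series. The series holds 12 groups of 3 libraries each, for a mimic control, the canonical mimic and 4 isomiRs of it, in normoxia and in hypoxia.

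All 6 samples came from H9C2, an established line of rat cardiac myoblasts. Cells were transfected with 25 nmol/L of mimic for 24 h, and then spent 24 h in normoxia in fresh culture medium before RNA was taken. Both groups carry a miR-125b mimic, so the comparison is between forms that differ by 1 base and holds no untreated cells. The mimic control libraries of normoxia were not analysed here. The labels give no separate passage or culture day for the 3 libraries of a group, so p-values measure the spread between these libraries, which may be technical.

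A microRNA guides the silencing complex to messenger RNAs, mostly through pairing of its seed, the bases near its 5′ end, with sites in the 3′ untranslated region. The target is then degraded or translated less. A 3′ isomiR keeps the seed and changes at the other end, where pairing, loading and turnover of the microRNA can still be affected. miR-125b is abundant in heart and muscle and is known from studies of differentiation, the cell cycle and apoptosis.

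The mature sequences of the compared mimics are shown to make plain how small the difference is, with the seed, bases 2 to 8, in capitals. The canonical sequence is that of rno-miR-125b-5p in RefSeq, assembly GRCr8, chr11:29732588-29732609 on the + strand, within the Mir125b2 gene. The other sequences were made from it by the base changes that their names give, and the mimics as synthesised may carry other chemistry.
miR-125b: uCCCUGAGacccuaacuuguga
Trim A: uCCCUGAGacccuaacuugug
Plus A: uCCCUGAGacccuaacuugugaa
Trim AG: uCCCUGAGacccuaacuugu
Trim AGU: uCCCUGAGacccuaacuug
All 5 share 1 seed, CCCUGAG. Trim A has 21 bases and the canonical form 22.

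The libraries were poly-A selected and not stranded, and their totals lay between 28361216 and 29781201 counts. Levels are given as CPM, the count of a gene divided by the total of its library and scaled to 1000000. Of 13 markers chosen for the H9C2 line, most were well above 1 CPM. Among them, Myod1, a myogenic transcription factor, was at 124 to 145 CPM, Cdh15, the cadherin of muscle precursors, at 490.4 to 598 CPM, and Acta2, smooth muscle actin, at 7576 to 8768 CPM over the 6 libraries. Des, desmin, was low at 2.58 to 3.38 CPM, and Nkx2-5, a cardiac transcription factor, lay below 1 CPM at 0.437 to 0.987 CPM. Some markers of other cell types were at or near 0, with at most 0.138 CPM for Ptprc of leukocytes, 0.171 CPM for Epcam of epithelium and 0.0672 CPM for Vwf of endothelium. Others on the same lists were not. Cd14 of the immune list was at 16.1 to 22.1 CPM and Krt8 of the epithelial list at 32.8 to 43.9 CPM. Flt1 and Egfl7 of the endothelial list were at 13.5 to 16.3 and 24.1 to 27.7 CPM. Pecam1, Cdh5 and Kdr had no value. The summed level of 9 immune markers was 21.2 to 22.1 CPM with Trim A and 18.8 to 25.5 CPM with miR-125b. The summed level of the 8 epithelial markers in the tables was 33.3 to 44.5 CPM and 39.4 to 42.1 CPM, nearly all of it Krt8, and the 6 endothelial markers summed to 41.6 to 42.9 CPM and 39.0 to 45.0 CPM. The 6 neural markers summed to 17.1 to 21.6 CPM with Trim A and 22.3 to 30.0 CPM with miR-125b, most of it Tubb3 and Map2.

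One library stood apart from its group. The library labelled Normoxia miR-125b replicate 1 held 102 CPM of Cav1, the main coat protein of caveolae, whereas replicates 2 and 3 held 282 and 263 CPM. The library labelled Normoxia Plus A replicate 1 stood apart in the opposite way, with 269 CPM of Cav1 against 98.0 and 98.3 CPM in the other Plus A libraries. In hypoxia the miR-125b libraries lay at 241 to 246 CPM and the Plus A libraries at 93.9 to 100.2 CPM, with no such exception. Over 294 genes that were called between Plus A and miR-125b in hypoxia (2.03% of genes tested there were called), the library labelled Normoxia miR-125b replicate 1 was closer to the other Plus A libraries for 78.9%, against 36.7% and 38.4% for the other miR-125b libraries. Labels were kept as deposited, and the counts of calls and the gene lists whose count of calls changes are also given without this library.

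**Figure D1:**
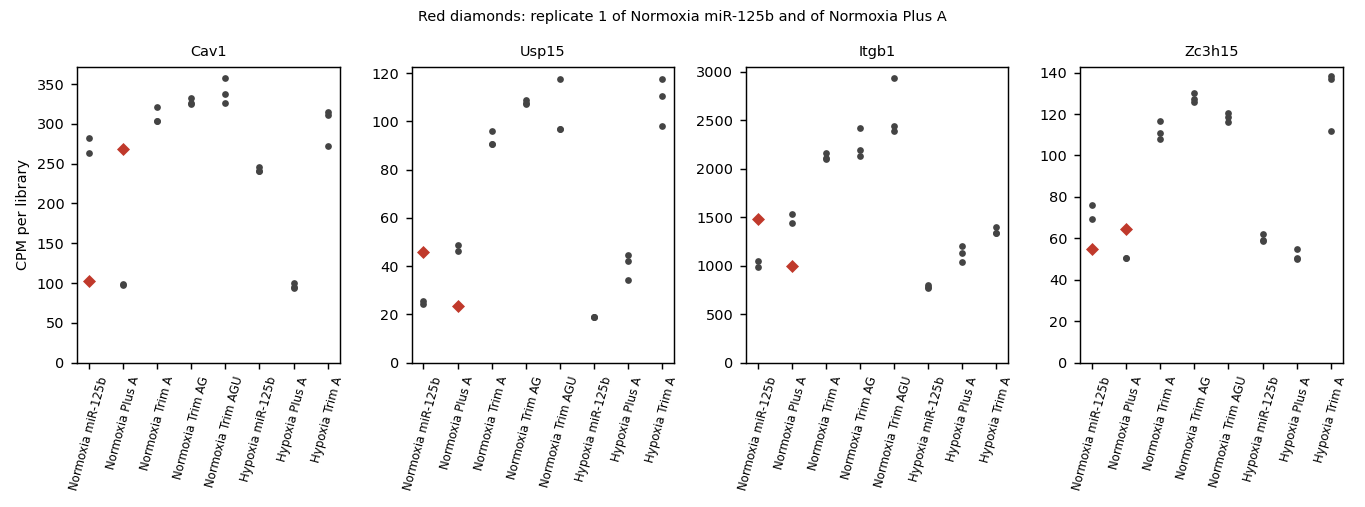
CPM of 4 genes in each library (y axis, from 0) by group (x axis), with 3 points per group. The red diamonds mark replicate 1 of Normoxia miR-125b and of Normoxia Plus A, each of which lies at the level of the other group, for example at 102 and 269 CPM for Cav1.

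Few genes were called between Trim A and miR-125b in normoxia, and most of these were higher with Trim A. Of 14732 genes tested, 54 were higher and 7 were lower with Trim A, which is 0.367% and 0.0475%, or 0.414% in all, of the genes tested (edgeR's quasi-likelihood test, Benjamini-Hochberg adjusted p under 0.05 together with a 1.5-fold difference or more). The median fold of the genes that were higher was 1.68, and 41 of the 54 differed by less than 2-fold. Without the fold threshold, 211 genes were higher and 72 lower, which is 1.92% of the genes tested, and without the library labelled Normoxia miR-125b replicate 1 these counts were 340 and 113 (3.02%). The groups did not overlap for any of the 61 called genes, and for 25.3% of all genes tested. By the same test 2758 genes (18.7%) had an unadjusted p under 0.05, so the small number of calls does not show that the groups are alike.

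Most genes could be bounded. For 10172 genes, 69% of those tested, the 95% interval of the fold change lay wholly inside 1.5-fold in either direction. Among the 12969 genes whose mean reached 1 CPM the share was 78.4%. Libraries of the same group differed by 0.287 to 0.338 on the root mean square log2 CPM scale, and libraries of the different groups by 0.306 to 0.373. Without the library labelled Normoxia miR-125b replicate 1 these ranges were 0.287 to 0.311 and 0.306 to 0.343, which still overlap.

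**Figure D2:**
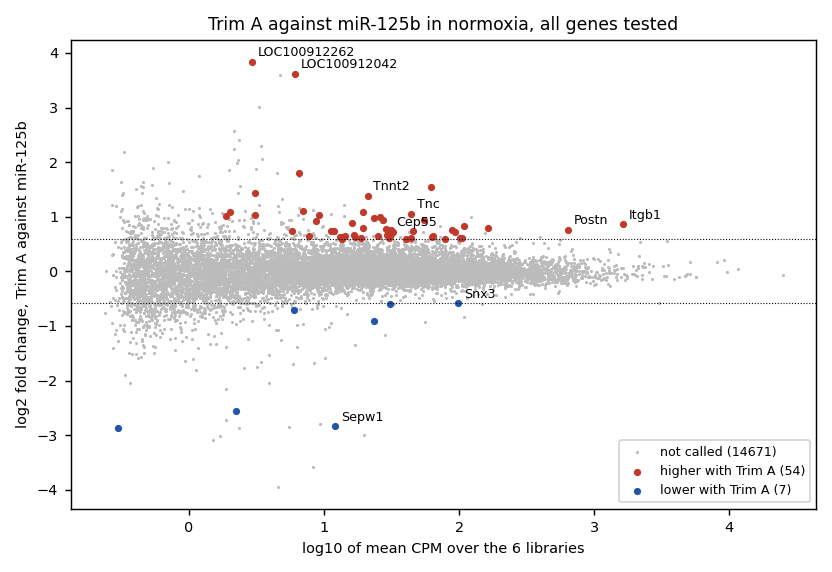
Log2 fold change of Trim A against miR-125b in normoxia (y axis) by the log10 of the mean CPM over the 6 libraries (x axis), 1 point per gene tested. Red points are the 54 genes that were higher with Trim A and blue points the 7 that were lower; dotted lines mark a fold of 1.5, and most points lie between them.

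The calls depended on which libraries were present. Without the library labelled Normoxia miR-125b replicate 1, 74 genes were higher (0.494%) and 16 lower (0.107%), 40 of the 54 and 6 of the 7 were called again, and all 61 kept their sign. Leaving out each of the 6 libraries in turn, 12 genes were called every time, among them LOC100912042, Lsm2, Nek2, Cep55, LOC100912262, Arhgap33, Tmem123, Adarb1, Tnc and Col6a3, which were higher, and Sepw1, which was lower. The genes Mis18a, Shbg, Prima1 and Frem1 were called in none of these 6 fits.

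Several of the 54 genes, put together here after their values were seen, belong to the extracellular matrix or to the attachment of cells to it. Tnc encodes tenascin C, a matrix glycoprotein of remodelling tissue, and lies at chr5:79789671-79874671 on the - strand in the coordinates of the deposited tables. It was at 33.1, 26.8 and 26.8 CPM with miR-125b and at 52.96, 70.5 and 55.4 CPM with Trim A. Every Trim A library was above every miR-125b library, with Trim A replicate 2 the highest. The log2 fold change was 1.05 ± 0.12 (SE), with an adjusted p of 0.00718 by edgeR's quasi-likelihood test. Col6a3, a chain of collagen VI, was at 73.8, 79.2 and 82.0 CPM with miR-125b and at 123, 162 and 129.9 CPM with Trim A, a 1.77-fold difference. Again the groups did not overlap and Trim A replicate 2 was the highest library.

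Postn, which encodes the matrix protein periostin, had the second highest level per length among the called genes, and was at 514, 472 and 439 CPM with miR-125b and 736, 978 and 695 CPM with Trim A. Loxl2, an enzyme that crosslinks collagen, was at 139, 108 and 117 CPM and at 181, 231 and 214 CPM. For both genes the groups did not overlap and Trim A replicate 2 was the highest library. Postn differed by 1.70-fold and Loxl2 by 1.73-fold, with adjusted p of 0.0197 and 0.0132 by edgeR's quasi-likelihood test.

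Itgb1 encodes the beta 1 integrin, the shared subunit of many matrix receptors, and was the called gene with the highest level per length, at a mean of 595 FPKM with Trim A and 326 FPKM with miR-125b. Its counts were 1484, 983 and 1047 CPM with miR-125b and 2162, 2112 and 2095 CPM with Trim A. The Trim A libraries lay close together, whereas replicate 1 of miR-125b lay between the groups. The log2 fold change was 0.87 ± 0.13 (SE), and 1.07 without that library. Further matrix and adhesion genes that were higher, named here after their values were seen, were Abi3bp (2.04-fold), Olfml2b (1.91-fold), Sgcb, the beta sarcoglycan of the muscle cell membrane (1.69-fold), Frem1 (1.66-fold), Crispld2 (1.62-fold), Adamts20, a secreted metalloprotease (1.57-fold), and Colgalt1, which adds galactose to collagen (1.54-fold). Of these 12 genes, 11 had their highest Trim A value in replicate 2, as did 36 of all 54 genes that were higher. Replicate 2 was also the highest library of Trim AG and of Trim AGU for Tnc, at 105 and 87.7 CPM, and for Postn, at 908 and 1177 CPM.

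Over the whole list of collagen, matrix and fibroblast genes, 4 of 37 tested were higher and none was lower. Over all genes tested 0.367% were called higher and 0.0475% lower. The median log2 fold change of the list was 0.20 beside -0.0029 over all genes tested. Among the 4 were Col6a3, Loxl2 and Postn, and without the library that stood apart 5 passed. The main fibrillar collagens did not follow them. Col1a1 was at a mean of 24095 CPM with Trim A and 25524 CPM with miR-125b (log2 fold change -0.08), and Col3a1 at 9554 and 9639 CPM (-0.00). Mmp14, a membrane-bound matrix metalloprotease, was lower by less than 1.5-fold, at a log2 fold change of -0.30 with an adjusted p of 0.018 by edgeR's quasi-likelihood test.

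**Figure D3:**
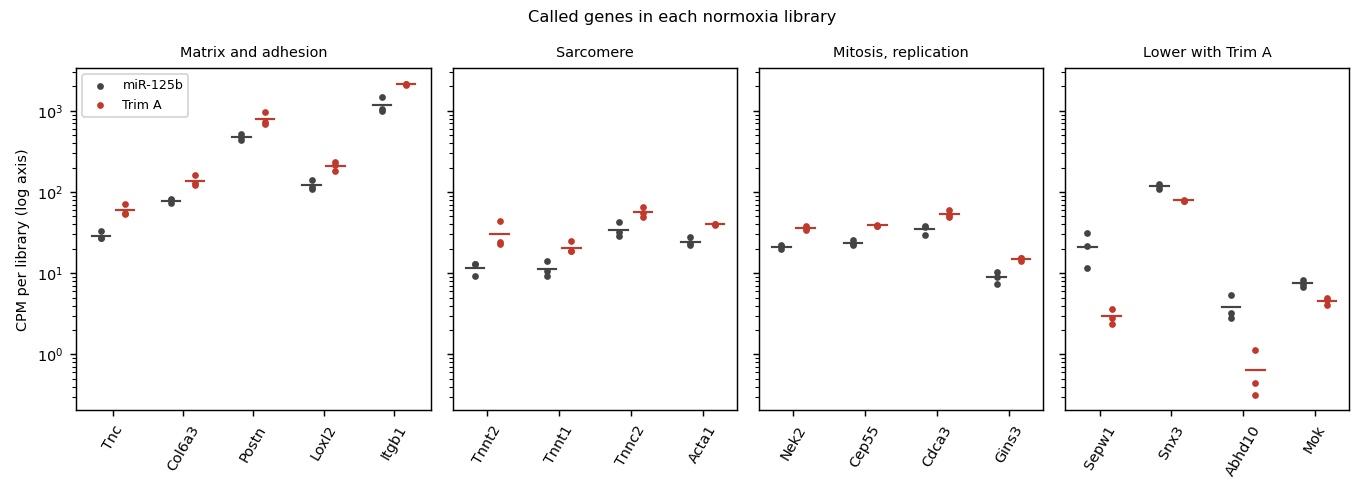
CPM of 17 called genes in each of the 6 normoxia libraries (y axis, log scale), with points for libraries and short lines for the mean of 3. The groups do not overlap for any gene shown, and Trim A replicate 2 gives the high points of Tnc, Col6a3, Postn and Tnnt2.

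Several sarcomere genes were higher with Trim A. Tnnt2, cardiac troponin T, was at 12.9, 9.22 and 12.9 CPM with miR-125b and at 23.0, 43.7 and 24.2 CPM with Trim A. Replicate 2 of Trim A was far above the others, and replicate 2 was also the highest library of Trim AG (40.2 CPM) and of Trim AGU (36.8 CPM). The log2 fold change of Tnnt2 was 1.39 ± 0.24 (SE), with an adjusted p of 0.0273 by edgeR's quasi-likelihood test, and it was called in only 1 of the 6 fits that left out a library.

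Acta1, skeletal muscle actin, was more even, at 27.9, 23.2 and 22.2 CPM with miR-125b and 39.9, 40.8 and 39.1 CPM with Trim A, a 1.64-fold difference. Tnnt1, slow skeletal troponin T, was 1.84-fold higher, and Tnnc2, fast skeletal troponin C, 1.66-fold higher. These 4 were the called genes among 34 sarcomere genes tested, with 0.367% called higher over all genes tested, and without the library that stood apart 4 were called as well. In this list 29 had a log2 fold change above 0, with a median of 0.25 beside -0.0029 over all genes. Tpm1, tropomyosin 1, was the sarcomere gene with the highest counts, at a mean of 1459.5 CPM with Trim A and 1104 CPM with miR-125b. Its log2 fold change of 0.41 passed the test (adjusted p of 0.017 by edgeR's quasi-likelihood test) below the fold threshold, while Tpm2 was at 0.06. Srpk3, a muscle kinase, was 2.14-fold higher at 1.08 to 3.29 CPM.

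The regulators of the muscle programme gave no call. Of 22 myogenic regulators and fusion genes tested, none was called and 13 had an interval inside 1.5-fold, with a median log2 fold change of -0.02. Myog, myogenin, was at 0.44 with an adjusted p of 0.088 by edgeR's quasi-likelihood test, Cdh15 at 0.17 and Casq2 at 0.09. Of 17 contractile genes of smooth muscle none was called, although 5 passed the test below the fold threshold, led by Cnn1, calponin 1, at 0.52. Over all genes tested 1.92% passed at any fold. The median of this list was 0.21. Without the library that stood apart, 1 smooth muscle gene was called higher, beside 0.494% called higher over all genes in that fit.

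A few genes of mitosis were higher with Trim A, and most genes of that list did not pass the test. In bulk RNA, more cells in mitosis and more of these transcripts per cell cannot be told apart. Nek2, a kinase of the centrosome, was at 21.5, 22.1 and 19.8 CPM with miR-125b and at 36.3, 38.3 and 33.6 CPM with Trim A. Cep55, a protein of the last step of cell separation, was at 22.6, 25.8 and 22.2 CPM and at 39.6, 38.5 and 38.5 CPM. Both genes separated the groups widely compared with their spread. The log2 fold change was 0.78 ± 0.08 (SE) for Nek2 and 0.73 ± 0.07 (SE) for Cep55, each with an adjusted p of 0.00414 by edgeR's quasi-likelihood test. Cdca3, a cell division gene, was 1.53-fold higher, and lost its call without the library that stood apart (log2 fold change 0.51).

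Of 31 mitosis and cell cycle genes tested, these 3 were called and 14 passed the test at any fold, beside 0.367% called higher and 1.92% at any fold over all genes. Without the library that stood apart 2 were called. All 31 had a log2 fold change above 0, between 0.27 and 0.78. The median was 0.41, and 0.30 without the library labelled Normoxia miR-125b replicate 1. Their summed level was 1917, 2480.2 and 2429.7 CPM in the miR-125b libraries and 3069, 3053 and 2985 CPM in the Trim A libraries, so that library was the lowest. Mki67, the proliferation antigen, was at 172, 208 and 217 CPM with miR-125b and at 263, 276 and 283 CPM with Trim A. Cdk1, the kinase of entry into mitosis, and Plk1, the polo-like kinase, were at log2 fold changes of 0.41 and 0.46.

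The DNA replication list had 1 sign throughout. All 35 tested had a log2 fold change above 0, with a median of 0.35 (0.24 without the library that stood apart) beside -0.0029 over all genes tested. Of the 35, 8 passed the test at any fold and 1 was called, beside 1.92% at any fold and 0.367% called higher over all genes. The called gene was Gins3, a subunit of the replicative helicase, at 7.43, 10.3 and 9.07 CPM with miR-125b and 15.3, 14.1 and 15.3 CPM with Trim A. Rfc2, of the clamp loader, was at 0.54, Rrm1, of ribonucleotide reductase, at 0.38, and Pcna, the sliding clamp, at 0.21 with an adjusted p of 0.267 by edgeR's quasi-likelihood test. Further genes of chromosome copying and repair were called outside the list and are named after their values were seen. These were Fancd2 of the Fanconi pathway (1.56-fold), the helicases Ddx11 (1.58-fold) and Pif1 (1.56-fold), the repressor E2f8 (1.55-fold), and Mis18a, of centromere assembly (1.55-fold). Without the library that stood apart Fancd2, Ddx11, Pif1, E2f8 and Mis18a each fell just below the fold threshold, at log2 fold changes of 0.56, 0.56, 0.57, 0.55 and 0.54, and all but Pif1 still passed the test.

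Some called genes, grouped here after their values were seen, act in protein turnover or in RNA handling. Usp15 encodes a deubiquitinating enzyme and lies at chr7:66595742-66687278 on the + strand in the coordinates of the tables, where a small RNA gene and a further annotated gene overlap it. It was at 45.8, 25.4 and 24.3 CPM with miR-125b and at 90.7, 90.6 and 96.0 CPM with Trim A. The high miR-125b value was again that of replicate 1, and the Plus A libraries were at 23.5, 46.3 and 48.9 CPM. The log2 fold change was 1.54 ± 0.20 (SE), with an adjusted p of 0.0113 by edgeR's quasi-likelihood test, and without that library 1.90 with 2.9e-06.

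Zc3h15, a zinc finger protein, was at 54.7, 76.0 and 69.4 CPM with miR-125b and 116, 111 and 108 CPM with Trim A. Lsm2, a subunit of the ring that binds U6 RNA and takes part in mRNA decay, was at 17.1, 19.3 and 15.99 CPM and 37.4, 34.7 and 31.8 CPM, and overlaps another annotated gene. Lsm2 thus differed by 1.99-fold and Zc3h15 by 1.69-fold. Adarb1, an enzyme that edits adenosine in RNA, was at 11.8, 11.6 and 13.9 CPM with miR-125b and 22.8, 30.6 and 25.6 CPM with Trim A, a log2 fold change of 1.09 ± 0.12 (SE). Pphln1, periphilin, was 1.51-fold higher and Grwd1, of ribosome assembly, 1.55-fold higher.

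Among genes of the membrane and of signalling, Tmem123, a transmembrane mucin-like protein, was at 14.9, 15.9 and 16.8 CPM with miR-125b and 30.1, 35.9 and 27.2 CPM with Trim A, a 1.97-fold difference. Arhgap33, a GTPase activating protein, was 1.58-fold higher at 22.0 to 23.6 CPM with miR-125b and 33.4 to 38.01 CPM with Trim A. Cdh24, a type 2 cadherin, was 1.52-fold higher with very little spread, at 75.7 to 84.2 CPM and 119 to 125 CPM. Oaf, Ccdc25 and B4galt1, a galactosyltransferase of the Golgi, were 1.64-fold, 1.74-fold and 1.51-fold higher, and Rspo1, an activator of Wnt signalling, 1.53-fold.

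Genes of cholesterol handling were higher in a few cases. Stard4, a carrier of sterols, was 1.68-fold higher at 4.07 to 7.76 CPM. Of 32 cholesterol and fatty acid synthesis genes tested 2 were called, beside 0.367% called higher over all genes, and 1 without the library that stood apart, with 29 of them above 0 and a median log2 fold change of 0.16. Scd2 and Fasn, of fatty acid synthesis, were at 0.05 and -0.11. Acat2, which makes acetoacetyl-CoA in the cytosol and is outside that list, was 1.57-fold higher, and Cept1, of phospholipid synthesis, 1.56-fold.

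The largest fold changes belonged to low transcripts whose level is uncertain. LOC100912262 is listed as similar to general transcription factor II-I repeat genes, and was at 0.480, 0.487 and 0.174 CPM with miR-125b and at 7.23, 5.84 and 3.35 CPM with Trim A, a 14.3-fold difference. Its named relative Gtf2ird1 was at 11.6 to 22.9 CPM with miR-125b and 9.55 to 15.3 CPM with Trim A, which overlap. LOC100912042, listed as similar to surfeit locus protein 2, was at 0.766 to 1.04 CPM with miR-125b and 6.83 to 16.7 CPM with Trim A, and overlaps another annotated gene. Within other groups LOC100912042 spread as widely, from 0.723 to 8.30 CPM in Normoxia Plus A and from 1.39 to 26.3 CPM in Hypoxia miR-125b. LOC100912262 was at 1.04, 1.01 and 5.63 CPM in Normoxia Trim AG and 0.381, 9.48 and 7.43 CPM in Normoxia Trim AGU. It stayed at 0.384 to 0.631 CPM in Normoxia Plus A, where Clip3 was at 3.70, 15.1 and 2.96 CPM. Clip3, Slc6a7 and Atn1 were 3.48-fold, 2.71-fold and 2.16-fold higher, each under 16 CPM in the 6 libraries compared.

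A set of 7 genes was lower with Trim A. Snx3, a sorting protein of endosomes, was at 110.4, 120.2 and 126 CPM with miR-125b and 77.6, 78.4 and 80.2 CPM with Trim A. The groups lay well apart. LOC100362384, listed as similar to ferritin light chain 1, was at 35.8, 37.3 and 38.6 CPM and 23.3, 23.5 and 26.7 CPM. Ftl1, the ferritin light chain itself, from which reads of that locus may come, was at 3664, 3809.8 and 3472 CPM and at 2611, 2330.0 and 2377 CPM, a log2 fold change of -0.57 that passed the test just below the fold threshold (adjusted p of 0.00414 by edgeR's quasi-likelihood test). Mok, a protein kinase, was lower at 6.85 to 8.25 CPM with miR-125b and 4.03 to 4.90 CPM with Trim A.

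Sepw1, a small selenoprotein, was the most reduced of the 7 apart from Shbg, at 31.1, 21.4 and 11.5 CPM with miR-125b and 2.82, 3.66 and 2.38 CPM with Trim A. Its level was unstable in other groups, at 26.8, 2.55 and 12.1 CPM with Plus A and 36.0, 1.92 and 28.3 CPM with Trim AG. Abhd10 was lower in the same way, at 2.77 to 5.32 CPM and 0.317 to 1.14 CPM, with 0.792 to 4.71 CPM within Plus A. Shbg was below 1 CPM in all 6 libraries. Mok, Abhd10 and Shbg were called in 1, 3 and none of the 6 fits that left out a library.

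In the stress lists no gene was called, and those that passed the test at any fold were lower with Trim A. Of 35 genes of the integrated stress and unfolded protein responses none was called, 6 were above 0 and the median was -0.16. Ddit3, the stress transcription factor CHOP, was at 78.3, 78.1 and 76.8 CPM with miR-125b and 52.6, 53.1 and 54.1 CPM with Trim A. Its log2 fold change of -0.54 ± 0.05 (SE) had an adjusted p of 0.00414 by edgeR's quasi-likelihood test and fell just short of 1.5-fold. Sesn2, Trib3, Ddit4 and Aldh1l2 passed at -0.43, -0.42, -0.40 and -0.28, while the chaperones Hsp90b1 and Calr were at -0.02 and 0.06. Of 21 NRF2 antioxidant genes none was called, with a median of -0.11, and Ftl1 and Gsr, glutathione reductase, passed at -0.57 and -0.30.

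Ribosomal protein genes differed by little. Of 57 tested none was called, 52 had an interval inside 1.5-fold, 1 was above 0, and the median log2 fold change was -0.13, with Rpl3 passing the test at -0.26. The 11 mitochondrially encoded genes had a median of -0.15 with none called. Of 40 apoptosis genes none was called, 31 lay inside 1.5-fold and the median was -0.01, and Bcl2l1, which restrains apoptosis, Casp4 and Fas passed the test at -0.36, -0.41 and -0.43. No gene was called among 33 interferon-stimulated genes (median -0.06, Tap1 passing at -0.44), 28 NF-kB, cytokine and chemokine genes (median -0.05), 34 HIF target and glycolysis genes (median -0.04), 24 immediate early genes (median -0.01), 16 IGF system and imprinted genes (median 0.08) and 4 caveolae genes. Without the library that stood apart the immediate early genes had 1 call, Fos, which was lower at -0.74, and a median of -0.13. Over all genes in that fit 0.107% were called lower. Cav1 was at a log2 fold change of 0.53 ± 0.29 (SE), with an adjusted p of 0.368 by edgeR's quasi-likelihood test and 0.112 without the library that stood apart.

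**Figure D4:**
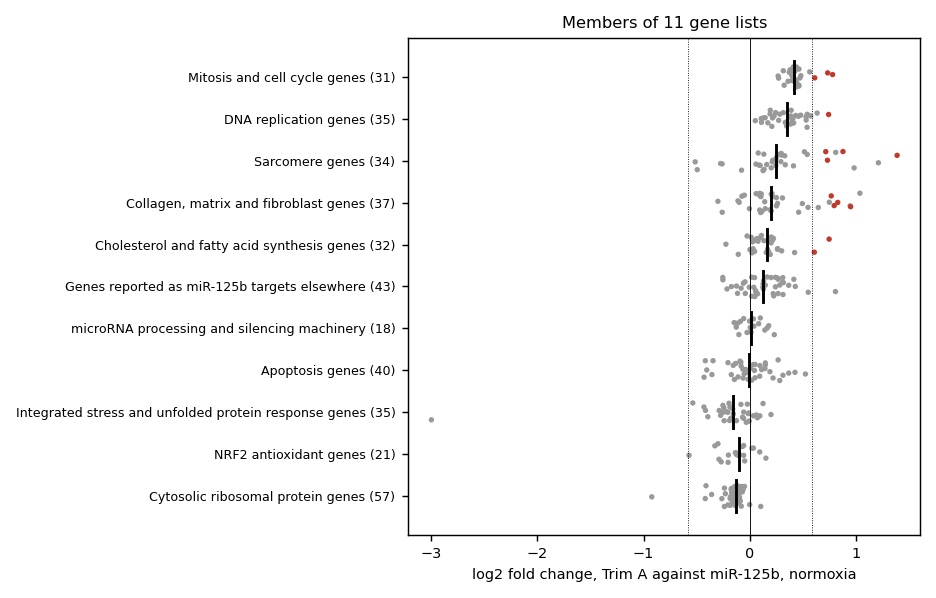
Log2 fold change of Trim A against miR-125b in normoxia (x axis) for the tested members of 11 gene lists (y axis, number tested in parentheses, points spread vertically for visibility). Red points were higher with Trim A, black bars are list medians and dotted lines a fold of 1.5; the mitosis and replication lists lie wholly to the right of 0, and no plotted list member was called lower.

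Genes that other work reports as targets of miR-125b gave no call, and most leaned slightly higher with Trim A. Of 43 tested none was called and 33 had an interval inside 1.5-fold. The median log2 fold change was 0.13, beside -0.0029 over all genes tested, with 32 above 0. Sgpl1, the lyase of sphingosine phosphate, was the clearest, at 82.5, 80.3 and 83.0 CPM with miR-125b and 119.6, 122 and 117 CPM with Trim A. Its groups were well apart, yet its log2 fold change of 0.55 ± 0.05 (SE) stayed below the fold threshold (adjusted p of 0.00414 by edgeR's quasi-likelihood test). Lipa, lysosomal acid lipase, passed at 0.31, and Igf2 and Ppp1ca were at 0.22 each without passing. The machinery that makes and uses microRNAs was level, with 17 of 18 genes inside 1.5-fold and none called, Dgcr8 at 0.23, Mov10 at 0.18, Snd1 at -0.13 and Xrn2 at 0.04.

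A further list holds genes that were assayed singly in the experiments of the series or are cited there from earlier work. Of it 15 could be tested here, and Tnnt2 was the 1 called, beside 0.414% called in either direction over all genes tested. Bak1, a promoter of apoptosis, was at 42.0, 32.5 and 32.8 CPM with miR-125b and 45.3, 50.8 and 47.3 CPM with Trim A, a log2 fold change of 0.42 with an adjusted p of 0.0647 by edgeR's quasi-likelihood test. Tp53inp2, an autophagy gene, was at 0.40, with an adjusted p of 0.0571, and 0.00939 without the library that stood apart. Bcl2l11, Bmf, Hif1an, Traf6, Tp53inp1, Dram2, Casp2, Bax and Actb each had an interval inside 1.5-fold, at log2 fold changes between -0.21 and 0.28. Klf13 was at 0.43 and Tnfrsf1b, below 1 CPM, at 0.52, with intervals that reach past 1.5-fold.

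The same 61 genes were then read in the other comparisons with miR-125b in normoxia. These share its 3 libraries, the one that stood apart included, and the genes were chosen against those libraries, so the values stand side by side as a description. The median log2 fold change of the 54 genes was 1.05 for Trim AG and 0.07 for Plus A, and without that library 1.08 and 0.05. Against miR-125b, 7.58% of all genes tested were called higher for Trim AG, and the share for Trim AGU was 6.22%. In the Plus A comparison 0% were called in either direction. That count of 0 is by edgeR's quasi-likelihood test, where 404 of 14781 genes had an unadjusted p under 0.05. Without the library that stood apart 1 gene was called. Both fits kept the library labelled Normoxia Plus A replicate 1. That library was closer to the other Plus A libraries for 18.7% of the 294 genes above, against 62.9% and 60.5% for replicates 2 and 3. Few calls here therefore do not show that Plus A and miR-125b are alike.

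Single genes show these levels side by side. Against miR-125b, Nek2 had log2 fold changes of 0.78 with Trim A, 1.73 with Trim AG, 1.56 with Trim AGU and 0.11 with Plus A, and Tmem123 of 0.98, 1.87, 2.08 and -0.10. Of the 31 mitosis genes, 3 were higher for Trim A, 31 for either shorter form and none for Plus A. Without the library that stood apart these counts were 2, 31 and none, with Normoxia Plus A replicate 1 kept. Over all genes, 7.06% were then called higher for Trim AG and 5.27% for Trim AGU. Snx3, in contrast, was at -0.59, -0.42 and 0.06 in the Trim A, Trim AG and Trim AGU comparisons. Col6a3 was at 0.83, 0.45 and 1.02. Whether Trim A differs from the shorter forms at these genes was not tested.

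The comparison in hypoxia uses other libraries throughout, 3 of Trim A and 3 of miR-125b kept 24 h in hypoxia. There 69 genes were higher and 63 lower with Trim A, 0.873% of 15115 genes tested (0.457% higher and 0.417% lower). Of the 54 genes that were higher in normoxia, 12 were higher, 1 was lower, and the median log2 fold change was 0.09. The 12 were Usp15, Nek2, Cep55, Lsm2, Itgb1, Zc3h15, Acta1, Ccdc25, Cept1, Mis18a, Oaf and the pseudogene AABR07021220.1. Of the 7 that were lower in normoxia, Snx3 was among those lower in hypoxia too.

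Usp15 was the widest of these, at 19.01, 18.9 and 18.99 CPM with miR-125b and 97.9, 118 and 111 CPM with Trim A in hypoxia, a log2 fold change of 2.52. Lsm2 was at 11.5, 9.91 and 8.78 CPM and 21.1, 20.6 and 20.7 CPM. For these genes, groups that share no library with the normoxia comparison were apart in the same direction. Of the mitosis genes, 18 of 31 were higher in hypoxia, beside 0.457% called higher over all genes there, with a median log2 fold change of 0.61.

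Most of the matrix genes were not called in hypoxia. Of the 12 named above, 2 had a log2 fold change above 0, of which Itgb1 was called, and Olfml2b was lower at -1.33. Tnc was at 9.38, 12.4 and 10.2 CPM with miR-125b and 8.47, 4.69 and 4.98 CPM with Trim A, and Col6a3 at 89.8, 92.7 and 97.0 CPM and 73.2, 28.0 and 32.9 CPM. Trim A replicate 1 of hypoxia was above the other Trim A libraries for both genes. Of 36 collagen, matrix and fibroblast genes, 4 were lower and none higher in hypoxia, with a median of -0.44. Over all genes there 0.417% were called lower and 0.457% higher.

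The difference between hypoxia and normoxia was tested as an interaction over these 12 libraries. Cells in hypoxia had a low-glucose medium without serum, so oxygen and medium cannot be told apart. The interaction was called for 94 of 15534 genes (0.605%), 19 with a higher and 75 with a lower effect of Trim A in hypoxia (0.122% and 0.483%). Of the 61 genes 14 were called. They were chosen for being apart in normoxia libraries that also enter this fit, which favours an interaction of the opposite sign, so nothing is read from that count. For Tnc the interaction was -1.86 ± 0.26 (SE) on the log2 scale. These calls rest on the full set of libraries, since none remained without the library labelled Normoxia miR-125b replicate 1, where 3024 genes had an unadjusted p under 0.05, while all 94 kept their sign.

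**Figure D5:**
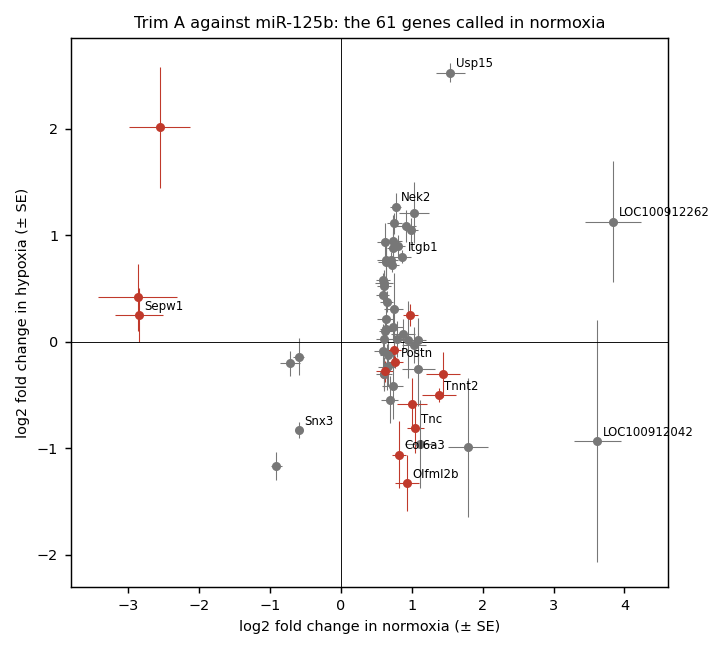
Log2 fold change of Trim A against miR-125b in hypoxia (y axis) and in normoxia (x axis) for the 61 genes called in normoxia, with bars for the SE. Red points are the 14 genes whose interaction with hypoxia was called; Usp15, Nek2, Itgb1 and Snx3 lie on the same side of 0 in both, and Tnc, Col6a3, Olfml2b and Tnnt2 do not.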

How the data were processed

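The deposited tables, 1 for a pair of groups, give the raw count and the authors' FPKM of each gene in each library. Libraries were non-stranded and poly-A selected, and HISAT2 and StringTie are named in the submitters' processing notes. The genome build is not given in the sources used here. Columns of the authors' own log2 fold changes, p-values, normalized values and group means were not used. Tables of hypoxia Trim AG and Trim AGU and of the mimic control were left out. Of the tables, 24 libraries were read, through the column names. A gene left out of a table had at most 1 count in another and was set to 0.

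The deposited counts went into edgeR 4.0.16, run in R 4.3.3 (TMM, filterByExpr, quasi-likelihood F test, Benjamini-Hochberg adjustment), on the libraries of the groups compared. A gene was called at an adjusted p below 0.05 and a fold of at least 1.5, and the interaction was fitted over 12 libraries. Intervals are 95% intervals of the fit. CPM values are counts divided by the library total, times 1000000, and FPKM values are the authors' and only set levels between genes side by side. Replicates differed by more than sampling noise (chi-square per gene 7.65 to 18.3) and all were kept.

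The text names, per direction, up to 20 called genes with the lowest adjusted p and at least 1 CPM. It also names genes called in every fit without 1 library and genes the study measured or names. In each list it names the called, the 2 most abundant and the 2 lowest-p members. Of the interaction genes it names up to 10 per direction and those also called in normoxia. Others are said to be named after their values were seen. The members and lists were chosen with earlier results of these data known. Alternatives were DESeq2 1.42.0, RLE normalization, no filter, all normoxia libraries in 1 fit, a replicate block, other fold thresholds and each library left out. Scripts were tested on simulated data. Of the gene names, 305 belong to several identifiers, and counts of near-identical copies and of the 9 called genes that overlap another gene are uncertain. Some genes are not reported here.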

Additional observations from a re-analysis of the deposited data

Results flagged for a closer look

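For 27 named genes the effect of Trim A against miR-125b differed between hypoxia and normoxia by the interaction test of edgeR's quasi-likelihood fit, and values below are that difference, hypoxia minus normoxia, on the log2 scale. The effect was higher in hypoxia for Sepw1 (3.10), Shbg (3.30, with at most 1.19 CPM in any library compared), Abhd10 (4.57) and Adh7, an alcohol dehydrogenase (1.25). It was higher too for the stress and other genes Ddit3 (0.87), Fas (0.67), Ccng1 (0.60), Casp4 (0.67) and Mdm2 (0.62), as well as AW549877 (0.60). In normoxia Ddit3, Fas, Ccng1, Casp4 and Mdm2 passed the test below the fold threshold, with lower levels in Trim A, and were not called. In hypoxia alone none of those genes passed. Ddit3 was at a mean of 53.3 CPM with Trim A and 77.7 CPM with miR-125b in normoxia, and at 269.6 and 217 CPM in hypoxia. The hypoxia libraries overlapped, at 222, 299 and 288 CPM with Trim A and 231, 212 and 206 CPM with miR-125b. The hypoxia difference of Ddit3 did not pass the test (log2 fold change 0.32, adjusted p of 0.167 by edgeR's quasi-likelihood test).

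The effect was lower in hypoxia for the matrix and membrane genes Tnc (-1.86), Col6a3 (-1.88), Olfml2b (-2.25), Postn (-0.94), Colgalt1 (-0.89), Sgcb (-0.83), Adamts14 (-1.49), Cdh24 (-0.90) and Scara3 (-1.24). All of these but Adamts14 and Scara3 were also called higher in normoxia, and Postn, Col6a3, Colgalt1, Sgcb and Cdh24 are listed for that reason only. Nothing is therefore read from this grouping. The effect was lower as well for the muscle genes Tnnt2 (-1.88) and Myog (-1.03), Myog being at a mean of 53.5 and 39.6 CPM in normoxia and 41.9 and 63.9 CPM in hypoxia with Trim A and miR-125b. The remaining genes were Clu (-0.73), Mfsd10 (-0.68), Rsrp1 (-0.75), Irf3 (-0.61), Slc6a7 (-1.74) and Tmem123 (-0.72). Of the 12 fits that left out 1 library, none called any gene without Normoxia miR-125b replicate 1 or 2, Hypoxia miR-125b replicate 2 or 3, or Hypoxia Trim A replicate 3, where 2591 to 3062 genes had an unadjusted p under 0.05. No gene named here was called in more than 7 of the 12 fits. Shbg, Ccng1, Mdm2, Cdh24, Col6a3 and Tmem123 were each called in only 1.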

How the results depend on the processing

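All 61 genes called between Trim A and miR-125b in normoxia kept their direction under every alternative run, and the number of calls moved. The counts of higher and lower genes were 92 and 24 with DESeq2, 90 and 22 without the filter on low counts, 75 and 18 with all normoxia libraries in 1 fit, 53 and 7 with RLE normalization, 13 and 3 at a fold of 2, and 211 and 72 with no fold threshold. Leaving out 1 library gave 15 to 74 higher and 4 to 16 lower genes, most without Normoxia miR-125b replicate 1 and fewest without Normoxia Trim A replicate 2. By the same removal 9469 to 10039 genes lay inside 1.5-fold, against 10172. The interaction gave 94 calls, 356 with DESeq2, 217 without the filter, 96 with RLE normalization, 41 at a fold of 2 and 126 with no fold threshold, and 0 to 1141 when 1 library was left out, the last without Hypoxia Trim A replicate 1. The causes were not tested.

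With the replicate number as a block, 35 genes were higher and 6 lower, 36 of the 61 were called again, 10017 genes lay inside 1.5-fold, and the interaction gave 0 calls, with 3159 genes at an unadjusted p under 0.05. Deviations of same-numbered libraries from their group means correlated at 0.00797, 0.0200 and 0.0195 across genes. Not every library correlated best with its own number, so the numbers were not taken to pair the libraries of these groups. The miR-125b mean used there includes the library that stood apart, so these values cannot show that the libraries are unpaired. Same-numbered libraries of Trim A and Trim AG correlated at 0.0144 to 0.107, those of Trim A and Trim AGU at 0.0184 to 0.102, and those of Trim AG and Trim AGU at 0.0910 to 0.179, the last above every pair of unlike numbers (at most 0.0144).

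With 3 libraries a group, a median SE of 0.103 on the log2 scale limits what can be called, and genes below 1 CPM were seldom bounded.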

Other observations

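Some list members had wide differences that were not called. Il33, an alarmin cytokine, was at 2.81, 5.01 and 4.27 CPM in the miR-125b libraries and 6.81, 12.7 and 7.42 CPM in the Trim A libraries, with a log2 difference of 1.16 ± 0.28 (SE) and an adjusted p of 0.0647 by edgeR's quasi-likelihood test. Nupr1, a stress-induced nuclear protein, was at 4.09 to 4.70 CPM with Trim A and at 4.42, 5.01 and 95.9 CPM with miR-125b. Its fitted log2 difference of -3.00 thus rests on miR-125b replicate 3, and Nupr1 was named after its values were seen. Il11 was at -0.79 and Tubb3, a tubulin of neurons, at -0.68, with adjusted p of 0.101 and 0.0642 by the same edgeR test.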
